A study of Homo sapiens with 6 samples.

Results

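The cytosolic ribosomal proteins are the protein parts of the ribosome that translates nuclear-encoded mRNAs. They were taken from a table of RNA levels as the loci with a single gene name of the RPL or RPS form, plus RPLP0, RPLP1, RPLP2, RPSA and FAU, and this rule found 70 of 35544 loci. Of these, 61 are core ribosomal proteins and 9 are paralogs of them (RPL26L1, RPL39L and the like), and 28 belong to the small and 42 to the large subunit. PolyA RNA was sequenced from SiHa, an established human line of cervical squamous carcinoma, grown in well plates. The control group was transfected with a vector plasmid and the other group with a hsa_circ_0005358 plasmid, both for 72 h, with 3 libraries each. These are called the vector and the circ_0005358 libraries. The question in the series' design text was which mRNAs lie downstream of this circular RNA, whose name the labels spell in several ways that were taken to mean the same RNA. Its own level was not analysed here, since the table holds no circular transcripts.

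A ribosome needs close to equal numbers of nearly all of its proteins, and their genes lie scattered over the chromosomes. Their mRNAs are short and abundant, and most begin with a cytosine followed by an unbroken run of pyrimidines, the 5′ terminal oligopyrimidine or TOP motif. Through this motif the kinase complex mTORC1 and the RNA-binding protein LARP1 set the translation and stability of these mRNAs together. Proteins made in excess of what ribosomes need are degraded, and free RPL5 and RPL11 bind MDM2, a ubiquitin ligase.

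The start regions of the mRNAs the results turn on are shown because the TOP motif is defined there. Each sequence runs from 10 bases before the start to 20 bases from it on, 5′ to 3′ on the gene's strand, from RefSeq on GRCh38.p14. Capitals mark a C followed by an unbroken run of C and T, at least 6 bases in all, where the first C stands within 5 bases before to 10 bases after the start. This is a looser search than for the motif itself, since the run need not begin at the start: in RPS15 its 7 bases begin 9 bases after it. The first group below holds the mRNAs that passed the test between the groups.
RPS24, chr10:78033853-78033882, plus strand: aatcgtggttCTCTTTTCCTCCTTggctgt
RPS15, chr19:1438386-1438415, plus strand: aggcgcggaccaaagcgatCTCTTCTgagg
RPL35, chr9:124861938-124861967, minus strand: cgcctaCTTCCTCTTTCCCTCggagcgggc
RPL31, chr2:101002279-101002308, plus strand: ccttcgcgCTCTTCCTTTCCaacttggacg
RPL41, chr12:56116623-56116652, plus strand: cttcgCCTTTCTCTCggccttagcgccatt
RPL37A, chr2:216498834-216498863, plus strand: gcgtctCTTCCTTTCTgggctcggacctag

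The paralog RPL22L1 held a run of 10 bases, while core members such as RPL3, RPS4X and RPS29 held none, so runs did not divide the kinds. For comparison, RPL24 and RPLP2 are core members that did not pass the test. RPL26L1, RPS27L and RPL7L1 are paralogs in which no such run was found.
RPL24, chr3:101686699-101686728, minus strand: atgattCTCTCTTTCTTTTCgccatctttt
RPLP2, chr11:809957-809986, plus strand: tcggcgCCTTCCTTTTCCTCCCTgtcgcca
RPL26L1, chr5:172958719-172958748, plus strand: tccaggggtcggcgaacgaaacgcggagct
RPS27L, chr15:63157458-63157487, minus strand: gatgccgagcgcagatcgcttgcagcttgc
RPL7L1, chr6:42879606-42879635, plus strand: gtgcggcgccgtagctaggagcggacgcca

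Such a run stood at 45 of 67 ribosomal protein starts in RefSeq (67.2%), against 4926 of 35116 starts of all genes (14.03%). Read on the other strand, the same search found 5.97% of ribosomal protein starts and 13.9% of all starts. Of the starts of mitochondrial ribosomal proteins, 9 of 85 held one (10.6%), and 16 (18.8%) on the other strand. Among the tested members with a RefSeq start, the run was present in 6 of 6 that passed the test and in 38 of 47 that did not. A missing run says only that these letters are not in the window.

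Levels are the authors' FPKM, fragments per length of transcript and size of library. They allow a rough comparison between genes, limited where reads can be split with pseudogenes, as described below. Of the 70 members, 66 had at least 1 FPKM in at least 3 of the 6 libraries and were tested. The other 4, RPL10L, RPL3L, RPS4Y1 and RPS4Y2, are paralogs below that level. Mean FPKM over all libraries ran from 1.60 for RPS29 to 323.6 for RPS2, a 201.7-fold range, with a median of 34.95. The median of all 10295 tested loci was 5.87 FPKM. Of the tested members, 57 reached a mean of 10 FPKM and 8 a mean of 100 FPKM. RPS29 and RPS2 are both core members, whose proteins a ribosome holds in near equal number. Their FPKM thus differed widely in this table. How far FPKM follows the RNA of each gene was not tested, and protein levels were not measured. Across the 66 genes, mean FPKM and median coding transcript length had a Spearman rho of 0.13, a description over genes that share the same libraries.

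The 4 highest were RPS2, RPLP0, RPL41 and RPS4X. RPS2, at the small subunit's mRNA entry, stood at 314.2, 276.9 and 290.4 FPKM in the vector libraries and 358.3, 361.7 and 340.1 FPKM in the circ_0005358 libraries. RPLP0, the base of the stalk that recruits elongation factors, stood at 241.4, 230.1 and 226.2 FPKM with the vector and 227.1, 265.6 and 259.7 FPKM with circ_0005358. RPS4X, the X-linked small subunit protein, stood at 208.1, 214.0 and 204.3 FPKM and at 199.4, 193 and 200 FPKM. The groups of RPS2 and of RPS4X did not overlap, in opposite directions, while those of RPLP0 did. The 4 lowest were RPS29, RPL22L1, RPS27L and RPL39L, of which all but RPS29, a zinc-binding core protein of the small subunit, are paralogs.

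Most ribosomal protein mRNAs differed little between the groups. Tests used limma on log2(FPKM + 1), with p-values adjusted by the Benjamini-Hochberg method over all 10295 loci, and loci under 0.05 were called. Fold changes are on that log2(FPKM + 1) scale, circ_0005358 minus vector. Whether the libraries are separate cultures is not in the labels, and the p-values then reflect only library-to-library spread, possibly technical. In bulk RNA, fewer cells of a type and less RNA per cell cannot be told apart. The test called 6 of 66 members (9.09%), against 11.4% of all tested loci. It called 5 members higher (7.58%, against 6.41% of all loci) and 1 lower (1.52%, against 4.96%). The share called higher lies near the background and is no result about the family, and the share called lower rests on 1 member. At an unadjusted p under 0.05 there were 15 members (22.7%) and 2813 loci in all (27.3%). The groups did not overlap for 22 members (33.3%: 16 higher and 6 lower with circ_0005358), against 35.8% of all loci. The split by direction was not counted over all loci, so it is no result about the family.

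The median log2 fold change of the 66 members was 0.045 and that of all loci 0.022. It was above 0 for 42 members (63.6%) and for 53.03% of all loci. The small subunit had a median of 0.019, with 14 of 26 above 0, and 2 members called, both higher. The large subunit had a median of 0.071, with 28 of 40 above 0, and 4 members called, of which 3 were higher and 1 lower. Differences were small in size: the median absolute log2 fold change was 0.112 in the members, 0.175 in all loci and 0.170 in the 3299 loci with a mean of 10 FPKM or more. A single member, RPS15, moved by over 1.5-fold, against 1078 of all loci (10.5%). For 53 members the 95% interval of the fold change lay within 1.5-fold in both directions, and for 63 it lay within 2-fold. For those members a change beyond these bounds lies outside the interval, which covers the spread between libraries alone.

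**Figure D1:**
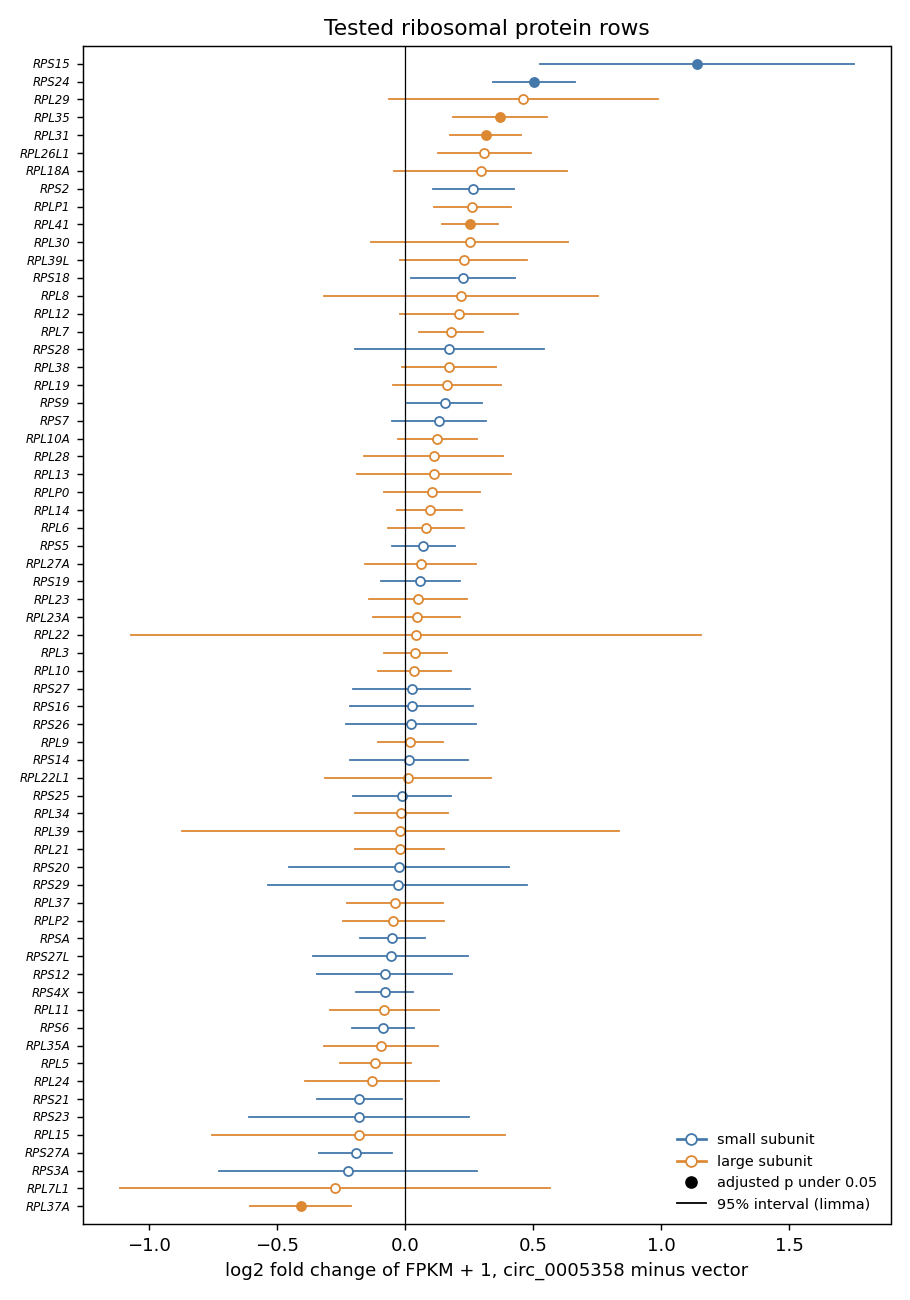
Log2 fold change of FPKM + 1 (horizontal axis, circ_0005358 minus vector) for 65 of the 66 tested ribosomal protein loci, ordered by size. Points are limma estimates, lines their 95% intervals, colour the subunit, and filled points have an adjusted p under 0.05. RPS15 stands at 1.14 and RPL37A at -0.41, and most others lie near 0.

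Among the small subunit proteins, RPS24 and RPS15 rose. RPS24, which takes part in processing the small subunit's RNA, is encoded on chromosome 10 (78033732 to 78056813, plus strand, ENSG00000138326, GRCh38). It stood at 19.58, 20 and 19.19 FPKM in the vector libraries and at 26.25, 28.42 and 30 FPKM in the circ_0005358 libraries. All circ_0005358 libraries were above all vector libraries. The means were 19.6 ± 0.41 and 28.2 ± 1.88 FPKM (SD, n = 3), and limma gave a log2 fold change of 0.50 (SE 0.064, adjusted p = 0.00906). RPS24 also passed without any 1 library (limma adjusted p from 0.0152 to 0.0447).

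RPS15, a protein of the small subunit's head needed for the export of its precursors, lies on chromosome 19 (1438358 to 1440494, plus strand, ENSG00000115268). It stood at 16.46, 13.81 and 17.67 FPKM with the vector and at 42.57, 24.78 and 44.88 FPKM with circ_0005358. Groups did not overlap, and circ_0005358 replicate 2, the library with the lowest depth, was nearer to the vector libraries than the others. The means were 16.0 ± 1.97 and 37.4 ± 11 FPKM (SD, n = 3), with a limma log2 fold change of 1.14 (SE 0.25, adjusted p = 0.0427, 95% interval 0.53 to 1.75). RPS15 passed without circ_0005358 replicate 2 (adjusted p = 0.00966 by limma). It did not pass by limma without vector replicate 1, 2 or 3 (adjusted p = 0.118, 0.135 and 0.0993) or without circ_0005358 replicate 1 or 3 (0.113 and 0.115). Rescaling the libraries to the same FPKM sum gave RPS15 a limma adjusted p of 0.0503.

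Among the large subunit proteins, RPL35, RPL31 and RPL41 rose and RPL37A fell. RPL35, near the exit of the peptide tunnel, lies on chromosome 9 (124857880 to 124861981, minus strand, ENSG00000136942). It stood at 106.1, 105.0 and 109.4 FPKM with the vector and at 125.9, 148.4 and 141.8 FPKM with circ_0005358. All circ_0005358 libraries were above the vector libraries, with replicate 1 the nearest. The means were 107 ± 2.28 and 138.7 ± 11.5 FPKM (SD, n = 3), with a limma log2 fold change of 0.37 (SE 0.073, adjusted p = 0.0337). RPL35 passed without circ_0005358 replicate 1 (adjusted p = 0.0203 by limma). Without vector replicate 1, 2 or 3 its limma adjusted p was 0.106, 0.115 and 0.0867, and without circ_0005358 replicate 2 or 3 it was 0.0749 and 0.111.

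RPL31, also beside the tunnel exit, lies on chromosome 2 (101001715 to 101024032, plus strand, ENSG00000071082). It stood at 8.68, 8.65 and 8.50 FPKM with the vector and at 10.39, 11.22 and 11.26 FPKM with circ_0005358. Vector libraries lay within 8.50 to 8.68 FPKM, and the groups did not overlap. The means were 8.61 ± 0.096 and 10.96 ± 0.49 FPKM (SD, n = 3), with a limma log2 fold change of 0.31 (SE 0.055, adjusted p = 0.0243). RPL31 passed without circ_0005358 replicate 1 (adjusted p = 0.0365 by limma). Without vector replicate 1, 2 or 3 its limma adjusted p was 0.088, 0.0864 and 0.0797, and without circ_0005358 replicate 2 or 3 it was 0.0666 and 0.0874.

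RPL41, a very short basic peptide at the face between the subunits, lies on chromosome 12 (56116586 to 56117943, plus strand, ENSG00000229117). It stood at 193.1, 186.3 and 185.9 FPKM with the vector and at 220.4, 229.1 and 225.0 FPKM with circ_0005358. Libraries of each group lay close together and apart from the other group. The means were 188 ± 4.08 and 225 ± 4.37 FPKM (SD, n = 3), with a limma log2 fold change of 0.25 (SE 0.044, adjusted p = 0.0228). RPL41 passed without circ_0005358 replicate 1 (adjusted p = 0.0496 by limma). Without vector replicate 1, 2 or 3 its limma adjusted p was 0.0535, 0.0911 and 0.0777, and without circ_0005358 replicate 2 or 3 it was 0.0584 and 0.0893.

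RPL37A, a zinc-binding protein, lies on chromosome 2 (216498189 to 216579180, plus strand, ENSG00000197756). It stood at 13.97, 13.39 and 11.82 FPKM with the vector and at 9.09, 9.66 and 9.99 FPKM with circ_0005358. Every circ_0005358 library was below every vector library, and vector replicate 3 was the nearest to them. The means were 13.1 ± 1.11 and 9.58 ± 0.46 FPKM (SD, n = 3), with a limma log2 fold change of -0.41 (SE 0.079, adjusted p = 0.0325). RPL37A passed without vector replicate 3 (adjusted p = 0.0356 by limma). Without vector replicate 1 or 2 its limma adjusted p was 0.103 and 0.113, and without circ_0005358 replicate 1, 2 or 3 it was 0.0898, 0.0836 and 0.0812. For each of these 6 loci the exact two-sided permutation test of 3 against 3 libraries gave p = 0.1, the smallest it can give.

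**Figure D2:**
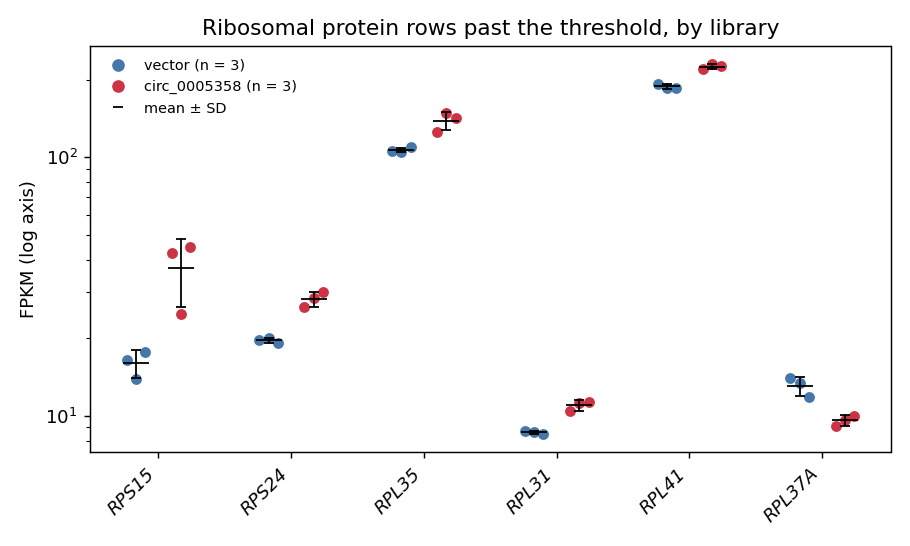
FPKM (log axis) of the 6 ribosomal protein loci with an adjusted p under 0.05, by library. Points are libraries (n = 3 a group), bars the mean and SD, and the groups do not overlap for any of the 6. RPS15 has the widest spread, from 24.78 to 44.88 FPKM in the circ_0005358 libraries.

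Several members lay just outside the threshold. RPLP1, an acidic stalk protein that recruits elongation factors, stood at 61.32, 57.34 and 57.29 FPKM with the vector and at 68.85, 68.11 and 74.88 FPKM with circ_0005358 (log2 fold change 0.26, limma adjusted p = 0.0511). RPS2, whose library values are given above, gave 0.27 (limma adjusted p = 0.0555). RPL7, which binds the large subunit's RNA, stood at 63.48, 61.86 and 62.23 FPKM and at 71.38, 67.98 and 73.55 FPKM (0.18, limma adjusted p = 0.0820). All 3 were above the vector range in every circ_0005358 library. RPS27A, made as a fusion with ubiquitin, stood at 69.39, 69.04 and 64.63 FPKM with the vector and at 61.36, 59.55 and 56.34 FPKM with circ_0005358 (-0.19, limma adjusted p = 0.0972). Every one of its circ_0005358 libraries was below the vector range.

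Further from the threshold, values are given as group means with no call. RPS18 stood at 80.1 and 94.1 FPKM (limma adjusted p = 0.150). RPS21 stood at 76.8 and 67.6 FPKM (limma adjusted p = 0.156). RPL5, a partner of MDM2, stood at 128.6 and 118.7 FPKM (limma adjusted p = 0.249), and its groups did not overlap. RPS6, the substrate of the S6 kinases, stood at 82.9 and 78.1 FPKM (limma adjusted p = 0.327), also without overlap. The log2 fold change was -0.08 for RPS4X (limma adjusted p = 0.313), 0.11 for RPLP0 (0.432) and -0.13 for RPL24, at a bridge between the subunits (0.492). RPL11, the other partner of MDM2, stood at 66.9 and 63.2 FPKM and RPL3, at the peptidyl transferase centre, at 91.9 and 94.5 FPKM. Their limma adjusted p-values were 0.597 and 0.658.

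The paralogs are encoded by genes of their own and some can replace a core protein. None of the 5 tested passed with limma, and 1 of them, RPL26L1, had an unadjusted p under 0.05. RPL26L1 stood at 9.01, 8.29 and 8.59 FPKM with the vector and at 10.18, 11.85 and 10.82 FPKM with circ_0005358 (log2 fold change 0.31, limma adjusted p = 0.0541). Its core partner RPL26 has no locus to itself and stood at 38.7 and 39.5 FPKM (means) in one joined with other genes. RPL39L had means of 4.84 and 5.85 FPKM (0.23, limma adjusted p = 0.211), and RPS27L of 5.01 and 4.81 FPKM (limma adjusted p = 0.807). RPS27L's sign turned without circ_0005358 replicate 2. Their partners RPL39 and RPS27 had means of 33.8 and 32.7 FPKM and of 46.8 and 47.8 FPKM, and the sign of both also turned in some alternatives. RPL22L1 had means of 1.68 and 1.73 FPKM, and its sign turned under other scalings. Each tested paralog thus stood below its partner in FPKM, in both groups, wherever the partner had a locus to itself.

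**Figure D3:**
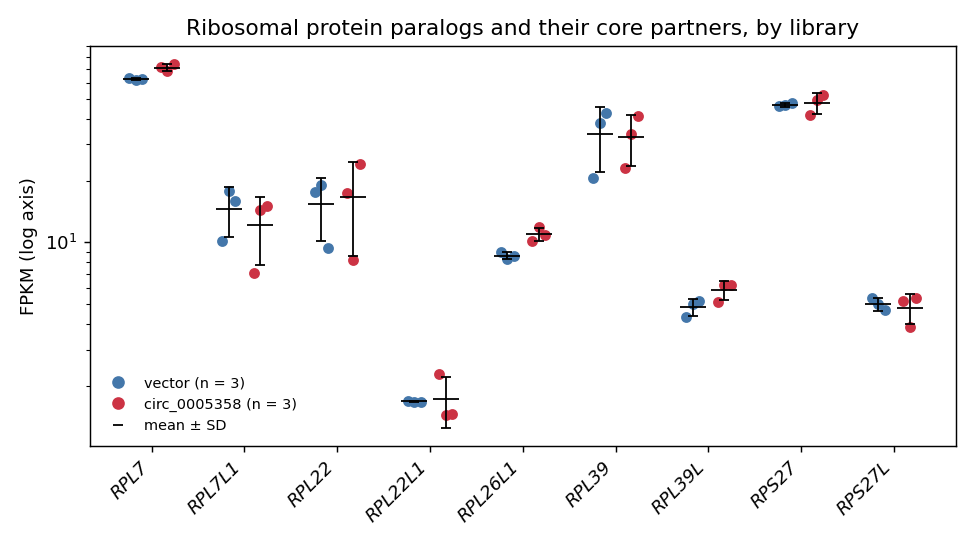
FPKM (log axis) of the 5 tested paralogs and their core partners with a locus of their own, by library. Points are libraries (n = 3 a group), bars the mean and SD. RPL22 and RPL39 spread widely within both groups, from 8.23 to 24.06 FPKM and from 20.48 to 42.56 FPKM.

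Some members varied between libraries of the same group by more than between groups. RPL22 stood at 17.68, 18.99 and 9.40 FPKM with the vector and at 17.39, 8.23 and 24.06 FPKM with circ_0005358. RPL39 stood at 20.48, 38.33 and 42.56 FPKM and at 23.06, 33.81 and 41.30 FPKM. RPL7L1, a paralog of RPL7, stood at 10.17, 17.84 and 15.83 FPKM and at 7.12, 14.33 and 15.06 FPKM. For RPL39 and RPL7L1, replicate 1 was the lowest library of both groups. RPL29 stood at 34.53, 52.89 and 59.65 FPKM with the vector and at 61.20, 71.25 and 66.39 FPKM with circ_0005358 (log2 fold change 0.46, limma adjusted p = 0.231). Its groups did not overlap, yet the vector libraries alone ran from 34.53 to 59.65 FPKM. RPS3A stood at 119.0, 100.7 and 86.55 FPKM and at 66.46, 103.3 and 94.22 FPKM, and RPL15 at 38.10, 28.82 and 54.62 FPKM and at 36.39, 32.44 and 34.57 FPKM. As a whole the members were less variable than other loci in the vector libraries. Their median coefficient of variation was 4.83% there, against 9.01% for all loci and 6.16% for loci with a mean of 10 FPKM or more. In the circ_0005358 libraries it was 7.72%, against 9.86% and 7.56%.

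The circ_0005358 libraries differed among themselves in these genes. The median log2 deviation of the 66 members from the vector mean was 0.022, -0.013 and -0.0014 in vector replicates 1 to 3. It was -0.0094, 0.086 and 0.13 in circ_0005358 replicates 1 to 3. These deviations are without rescaling. The FPKM sum of all loci was 138864 to 141833 with the vector and 141895, 145278 and 143536 in circ_0005358 replicates 1 to 3. The part of library scale in the deviations was not tested. Replicate 1 was the lowest of the circ_0005358 libraries for 42 members (63.6%), against 38.0% of all loci, and replicate 3 for 5 members (7.58%), against 27.9%. The summed FPKM of the 66 members was 3698, 3556 and 3646 with the vector and 3681, 3989 and 3976 with circ_0005358, so replicate 1 lay within the vector range and the other two above it. The means were 3634 ± 72.0 and 3882 ± 174 FPKM (SD, n = 3), a ratio of 1.07. These sums made up 2.55% to 2.66% of all FPKM in the vector libraries and 2.59% to 2.77% in the others. The core small subunit proteins (25 loci) had a ratio of sums of 1.04 and the core large subunit proteins (36 loci) of 1.09. The small over large ratio was 0.88, 0.85 and 0.81 with the vector and 0.84, 0.79 and 0.80 with circ_0005358, and these ranges overlap.

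Depth relative to the deepest library was estimated from the FPKM worth of 1 fragment. It was 98.3% to 100% in the vector libraries and 94.1%, 71.4% and 97.8% in circ_0005358 replicates 1 to 3. Vector replicate 3 had 27803 loci above 0 FPKM, against 23227 to 23834 in the other libraries. The first principal component of all tested loci (33.8% of the variance) separated the groups. The second ordered both groups by replicate number. Replicate 1 stood at 16.1 with the vector and 12.2 with circ_0005358, and replicate 3 at -21 and -22.7. With replicate number as a block in the fit, limma called 0 of the 66 members. All 10 epithelial markers had a locus, and 8 had a mean of 1 FPKM or more, which does not by itself identify the line. Their summed level was 1312 to 1386 FPKM with the vector and 624.1 to 705.5 FPKM with circ_0005358, KRT17 going from a mean of 625.2 to 205.4 FPKM. Leukocyte markers summed to 10.4 to 13.4 FPKM and 1.48 to 16.4 FPKM, mostly CD14, and fibroblast markers to 7.06 to 10.6 FPKM and 2.67 to 3.12 FPKM, mostly LUM. Neural markers, nearly all MAP2, summed to 18.1 to 24.2 FPKM and 36.7 to 43.4 FPKM. Endothelial and erythroid markers summed to under 1 FPKM in every library, and no marker with a locus was at 0 in all 6. The part of these shifts in the ribosomal protein values was not tested.

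Another 17 core ribosomal proteins stand only in loci that join several gene names, so their values mix genes and they are not members. All 17 were tested, 12 had a log2 fold change above 0, against 53.03% of all loci, and the median was 0.16. With limma 2 of 17 passed, near the 11.4% of all loci, so the count is no result about them. Both are named because they passed, after their values were seen. The locus of RPL18 and AC022154.1 stood at 21.51, 20.57 and 21.77 FPKM with the vector and at 29.08, 32.11 and 29.10 FPKM with circ_0005358 (log2 fold change 0.48, SE 0.061, limma adjusted p = 0.00901). The locus of RPL7A and the small nucleolar RNA SNORD36C stood at 106.0, 101.5 and 102.4 FPKM and at 132.9, 155.5 and 150.2 FPKM (0.49, SE 0.072, limma adjusted p = 0.0134). Both were higher in every circ_0005358 library than in any vector library. The RPL18 locus passed without any 1 library (limma adjusted p from 0.021 to 0.0459). The RPL7A locus did not pass by limma without vector replicate 2 or 3 or circ_0005358 replicate 3 (adjusted p = 0.0617, 0.0543 and 0.0595).

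Ribosomal protein genes have many processed pseudogenes, nearly identical copies from which reads can be split. The table held 388 loci with names of such pseudogenes, 334 of them of members. Of the 388, 20 were tested and limma called none, with 4 at an unadjusted p under 0.05. Their summed means were 438.6 FPKM with the vector and 404.0 FPKM with circ_0005358. For 50 of the 66 tested members at least 1 such locus was present, and their values are uncertain to that extent. The pseudogenes of 3 members summed to more than the member in both groups. They summed to 43.4 and 44.1 FPKM for RPL9 (itself 8.85 and 8.99 FPKM), to 75.04 and 80.25 FPKM for RPL23A (25.04 and 25.86 FPKM), and to 82.1 and 81.7 FPKM for RPL7 (62.5 and 71.0 FPKM). RPSA pseudogenes summed to 79.7 and 48.9 FPKM, against 157.3 and 152.0 FPKM for RPSA. RPL15 pseudogenes summed to 33.8 and 30.8 FPKM, close to the level of RPL15. For RPS24 the sums were 0.055 and 0.19 FPKM, and for none of the 6 members that passed were they above 0.23 FPKM.

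Fold changes of neighbouring genes were set beside each member, after values were seen and with clusters of fold changes along chromosomes already known from earlier results. Only tested loci with a single gene name that has a position in GENCODE 29 could serve as neighbours. For each member, the median log2 fold change of the 5 nearest such loci on each side was taken. Ribosomal proteins among them were left out and not replaced. Around RPS24 the median was 0.49, close to its own 0.50. Of these 10 loci, which begin between positions 75099586 and 79663088 of chromosome 10, limma called 4, all higher, against 6.41% of all loci called higher. They were PPIF, a mitochondrial cyclophilin (20.9 and 42.3 FPKM, log2 fold change 0.99), DLG5 (0.84), ZCCHC24 (0.84) and ZMIZ1 (0.50). Around RPL37A the median was -0.45, close to its own -0.41. Of its 10 neighbours, which begin between 214725646 and 218398256 of chromosome 2, limma called 5, all lower, against 4.96% of all loci called lower. These were ARPC2, an actin nucleation subunit (26.2 and 16.1 FPKM, -0.67), ATIC (-0.62), XRCC5, a DNA end-binding protein (48.4 and 32.5 FPKM, -0.56), SMARCAL1 (-0.39) and AAMP (-0.34).

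The other members that passed differed in their surroundings. The median of neighbours was 0.27 for RPL35 (0 of 10 called by limma, 5 at an unadjusted p under 0.05) and 0.18 for RPL31 (2 of 10 called, REV1 at 0.38 and IL1R1 at 1.19). It was 0.02 for RPS15 (0 of 10 called by limma, 2 at an unadjusted p under 0.05) and -0.01 for RPL41 (1 of 9 called, SMARCC2 at 0.29). With 5 neighbours on each side, RPS15 and RPL41 thus rose among loci with medians near 0. Across the 66 members, the member's and the neighbours' log2 fold changes had a Spearman rho of 0.45 (Pearson r 0.42) and the same sign for 44. Across 9108 other tested loci with a position, rho was 0.26. These are descriptions over loci that share the same libraries, and neighbours of nearby members overlap. With 10 and 25 neighbours on each side, rho over the members was 0.48 and 0.59. With 5 on each side, the neighbours' median lay beyond 0.25 in either direction for 7 members and for 731 of the other loci (8.03%). Besides RPS24, RPL37A and RPL35, these were RPS27L, RPS6, RPS9 and RPL28, none of which passed by limma. RPS27L stood at -0.06 beside a neighbours' median of 0.33, so its sign was the opposite. RPS6 stood at -0.085 beside -0.31, RPS9 at 0.15 beside 0.31 and RPL28 at 0.11 beside 0.27. With 25 neighbours on each side the neighbours' median was 0.28 for RPS24 and -0.31 for RPL37A. It was 0.20 for RPL35, 0.18 for RPL31, 0.14 for RPS15 and 0.04 for RPL41, so the value for RPS15 depended on the window.

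**Figure D4:**
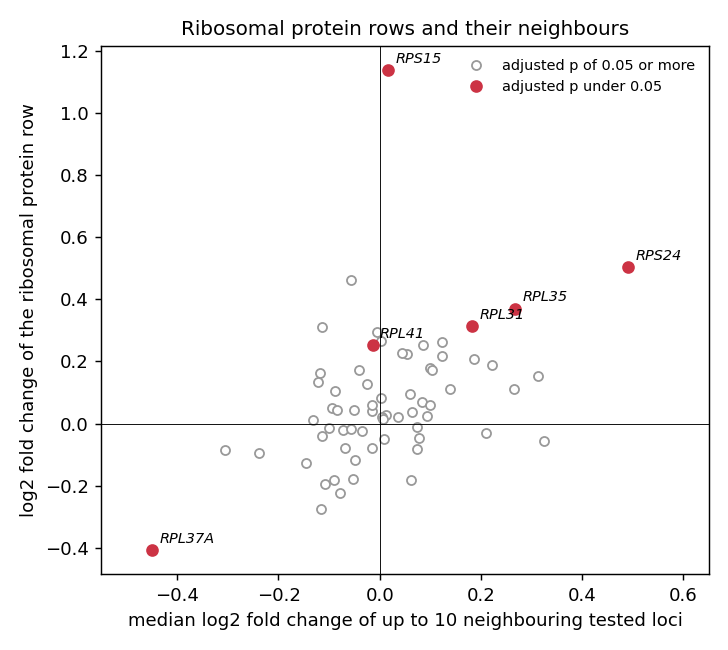
Log2 fold change of each of the 66 tested ribosomal protein loci (vertical axis) against the median log2 fold change of up to 10 neighbouring tested loci (horizontal axis). Filled points have an adjusted p under 0.05. RPS24 (0.49, 0.50) and RPL37A (-0.45, -0.41) lie with their neighbours, while RPS15 and RPL41 lie near 0 on the horizontal axis. Members that did not pass could lie apart from shifted neighbours, as RPS27L (0.33, -0.06) and RPS6 (-0.31, -0.085) do.

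Genes that act with the ribosomal proteins were taken from lists, and each list's count stands beside the 11.4% of all loci that limma called (6.41% higher, 4.96% lower). Of 17 tested TOP mRNAs outside the ribosome, mostly translation factors, limma called none, 4 had an unadjusted p under 0.05, and the median log2 fold change was 0.001. Those 4 had group means of 21.4 and 18.2 FPKM for EIF3M (limma adjusted p = 0.0699), 60.0 and 41.6 FPKM for EIF4B (0.128), 17 and 19.3 FPKM for EIF3K (0.129), and 69.7 and 95.1 FPKM for HNRNPA1 (0.136). Elongation factor EEF1A1 stood at 685.7 and 617.5 FPKM and EEF2 at 354.9 and 360.3 FPKM. Of 65 tested mitochondrial ribosomal proteins, which serve the separate ribosome of that organelle, limma called 3 (4.62%), all higher, below the 6.41% of all loci, with a median of 0.003. These were MRPS9 (15.9 and 20.3 FPKM, adjusted p = 0.0108), MRPL15 (15.1 and 19.9 FPKM, 0.0220) and MRPL16 (18.9 and 23.5 FPKM, 0.0471). MRPS9 did not pass by limma without vector replicate 1 or 2 (adjusted p = 0.0523 and 0.055). MRPL15 passed only without circ_0005358 replicate 3 (limma adjusted p up to 0.0798 without another library), and MRPL16 passed in none of the 6 fits without 1 library (0.0692 to 0.148).

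Of 79 tested ribosome biogenesis factors, limma called 3 higher (3.80%, below the 6.41% of all loci) and none lower, with a median of 0.018 and 16 at an unadjusted p under 0.05. RRP1, needed for processing of large subunit RNA, stood at 5.63 and 7.98 FPKM (adjusted p = 0.0113), TEX10 at 5.28 and 6.97 FPKM (0.0225) and PWP2 at 1.19 and 1.88 FPKM (0.0228). The fourth by p, IMP3, stood at 15.4 and 18.7 FPKM (limma adjusted p = 0.0525). Of 29 tested genes of RNA polymerase I and III transcription, which make ribosomal RNA and other small RNAs, limma called GTF3C3 alone (3.45% of the list), which was higher (8.76 and 10.5 FPKM, adjusted p = 0.0456), with a median of 0.025. Of 14 chaperones and importers of ribosomal proteins, limma called none, none had an unadjusted p under 0.05, and the median was 0.021. RRP1 did not pass by limma without vector replicate 1 or circ_0005358 replicate 3 (adjusted p = 0.0524 and 0.0527). TEX10 and PWP2 passed only without circ_0005358 replicate 1, with limma adjusted p-values of up to 0.0872 and 0.0879 without another library. GTF3C3 passed in none of the fits without 1 library (limma adjusted p from 0.0912 to 0.145).

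Of 25 tested genes of mTORC1, LARP1 and regulators of ribosomal protein genes, limma called 2, both higher (8%, against 6.41% of all loci), with a median of 0.10. YY1, a transcription factor, stood at 4.77 and 12.9 FPKM (log2 fold change 1.29, adjusted p = 0.0168), and RHEB, the GTPase that activates mTORC1, at 47.6 and 63.6 FPKM (0.41, adjusted p = 0.0274). LARP1 stood at 38.7 and 39.1 FPKM and MTOR at 20.6 and 18.8 FPKM, neither past the threshold by limma. Of 22 tested genes of ribosome surveillance and its stress response, limma called 1 higher and 2 lower (13.6% in all, near the 11.4% of all loci), with a median of 0.064. MDM2 fell from 13.2 to 9.37 FPKM (-0.45, adjusted p = 0.0120), the ubiquitin ligase HUWE1 fell from 56.1 to 48.5 FPKM (-0.21, adjusted p = 0.0364), and EIF2AK4, a kinase that senses uncharged tRNA, rose from 8.06 to 10.8 FPKM (0.38, adjusted p = 0.0241). MDM2 did not pass by limma without vector replicate 1 or 2 (adjusted p = 0.0531 and 0.0578), and YY1 passed only without vector replicate 1 or 3 (up to 0.0623 without another library). RHEB and EIF2AK4 passed only without circ_0005358 replicate 2 (limma adjusted p up to 0.0907 and 0.0854), and HUWE1 in none of these fits (0.0668 to 0.121).

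Several host genes of small nucleolar RNAs, the guides of ribosomal RNA modification, carry a TOP motif of their own and are spliced without a long reading frame. Of 12 tested, limma called 3, all lower (25% of the list, against 4.96% of all loci called lower). The median log2 fold change was -0.15, with 9 of 12 below 0. LRRC75A-AS1 fell from 18.0 to 12.9 FPKM (-0.45, limma adjusted p = 0.00872), SNHG5 fell from 10.1 to 6.97 FPKM (-0.48, 0.0151) and SNHG8 fell from 6.22 to 4.32 FPKM (-0.44, 0.0405). GAS5 stood at 9.48 and 8.28 FPKM (-0.18, limma adjusted p = 0.137). LRRC75A-AS1 passed without any 1 library (limma adjusted p from 0.0244 to 0.0471), SNHG5 did not without vector replicate 1 or 3 or circ_0005358 replicate 1 (0.0662, 0.0609 and 0.0501), and SNHG8 passed in none of these fits (0.0798 to 0.118). LRRC75A-AS1 is named as antisense, and its reads and those of an overlapping gene cannot be told apart, since no source used here states that strand was counted.

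**Figure D5:**
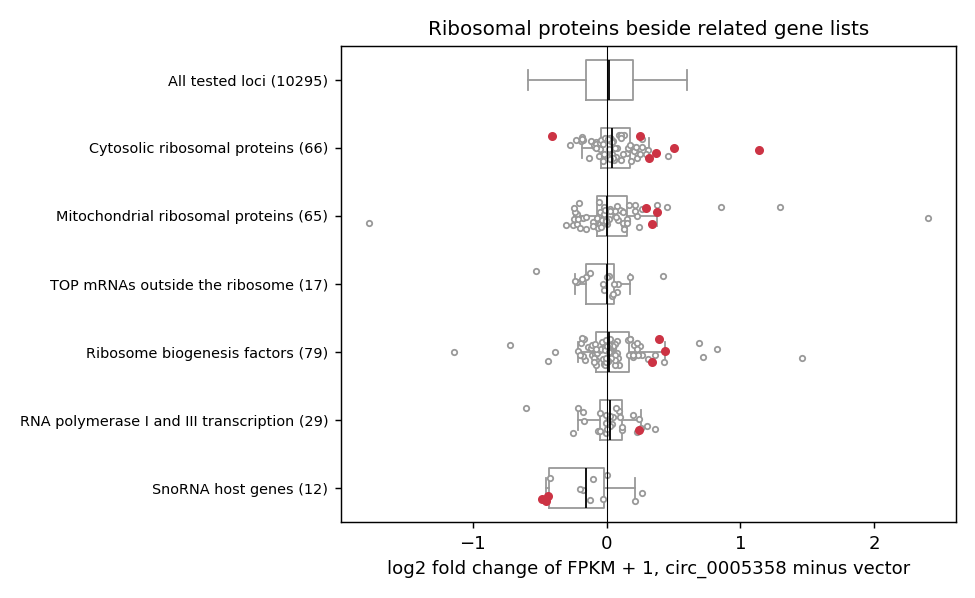
Log2 fold change of FPKM + 1 (horizontal axis, circ_0005358 minus vector) for all tested loci, the ribosomal proteins and related gene lists, with the number tested in brackets. Boxes show the quartiles and median, whiskers and points the spread, and filled points have an adjusted p under 0.05. The ribosomal protein quartiles run from -0.04 to 0.18, those of all loci from -0.15 to 0.20.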

How the data were processed

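PolyA RNA of 6 SiHa libraries was measured. The authors deposited 1 table of FPKM values for 35544 loci, per the file headers. Trimmomatic, HISAT2 and the build hg19 are named per the submitters' processing notes. Tool versions, the FPKM program and the annotation were not given in the sources used here. Counts were not given, so depth was estimated and no counting interval drawn. Of the loci, 16797 carry identifiers of assembled transcripts, and the table holds no coordinates. Positions came from GENCODE 29 on GRCh38, not the alignment build.

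Loci with at least 1 FPKM in at least 3 libraries were tested with limma 3.58.1 (R 4.3.3) on log2(FPKM + 1) with a variance trend, Benjamini-Hochberg adjustment over all tested loci and a threshold of 0.05, two-sided. The fit was tested on simulated data. The scale understates changes of low genes.

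The members and lists were chosen with earlier results of these data known. Members named were those called, up to 6 further with the smallest p in each direction, the 4 highest and 4 lowest, and paralogs with partners. From each list up to 4 were named by p. Others were chosen after values were seen. Alternatives covered pseudocount, filter, scaling, variance model, replicate block, thresholds and leaving out libraries. Some genes that these rules name are not reported here.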

Additional observations from a re-analysis of the deposited data

How the results depend on the processing

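Counts of calls moved with the processing, in the order ribosomal protein loci, those of them named, all 260 tested genes of the related lists, and all loci. With all libraries and the settings above they were 6, 6, 15 and 1171. Without the filter on low values they were 1, 1, 6 and 591. Leaving out 1 library gave 1 to 4, 1 to 4, 5 to 9 and 485 to 761. Leaving out both vector replicate 3 and circ_0005358 replicate 2, chosen after seeing the data, gave 1, 1, 2 and 198. At a threshold of 0.01 the ribosomal protein, list and all-loci counts were 1, 1 and 416, and at 0.1 they were 11, 31 and 1871. The cause was not tested, except that fewer libraries entered some fits. Calls higher with circ_0005358 were 56.4% of all calls, and 48.4% after rescaling to the same FPKM sum. The median log2 fold change of the ribosomal proteins ranged from 0.0106 to 0.0933 over the alternatives. RPS24 passed in 16 of 18 alternatives, and the other 5 called members in 9 or 10, all with the same sign in each.

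Same-numbered libraries had residual correlations of 0.0644, 0.0481 and 0.0781, each library correlating best with its own number, which is a hint from the data and not from the design. With the number as a replicate block the counts by limma were 0, 0, 0 and 259, and 14 ribosomal protein loci had an unadjusted p under 0.05.

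For members whose sign turned without 1 library, the other end of the range over such fits, on the side of the reported sign, was 0.45 for RPL22, 0.0822 for RPL22L1, -0.334 for RPL39, -0.499 for RPL7L1, 0.117 for RPS27, -0.125 for RPS27L and -0.152 for RPS29. Signs that turned belonged to members far from the threshold. RPL10 was -0.00599 without both libraries. RPL22 was -0.254 without vector replicate 3, -0.0473 without circ_0005358 replicate 1 and -0.27 without replicate 3. RPL22L1 was -0.0104, -0.00949 and -0.00512 under the 3 rescalings (same sum, same sum of other loci, median ratio), -0.00272 with array weights and -0.127 without circ_0005358 replicate 1. RPL39 was 0.056 with array weights, 0.103 and 0.176 without vector replicate 2 or 3, 0.206 without circ_0005358 replicate 1 and 0.134 without both libraries. RPL7L1 and RPS29 were 0.0413 and 0.199 without circ_0005358 replicate 1. RPS27 was -0.00926, -0.00769 and -0.00111 under the rescalings, -0.0374 with quantile normalization and -0.0422 without circ_0005358 replicate 3. RPS27L was 0.0635 without circ_0005358 replicate 2 and 0.0214 without both libraries.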
